A study of Mus musculus with 4 samples.

Results

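The response of wild-type (WT) mouse dendritic cells to 24 h of lipopolysaccharide (LPS), the cell-wall glycolipid of Gram-negative bacteria, was described from the ratio of the array labelled WT LPS over the array labelled WT control. These are 2 of the 4 arrays of the series, and the features described were all 34945 probe sets that carried 1 gene symbol, of 45037 probe sets that were not manufacturer's controls. They represented 18193 genes, of which 11449 were measured on at least 1 WT array. Bone marrow cells of C57/BL6 mice were grown for 6 to 7 days in 20 ng/mL GM-CSF, a cytokine that drives marrow precursors into dendritic cells and macrophage-like cells. Cells bearing CD11c, the integrin chain encoded by Itgax, were then collected with magnetic beads. The WT control culture was kept in 10 ng/mL GM-CSF, and the WT LPS culture received the same GM-CSF and 100 ng/mL LPS. The other arrays hold the same pair of treatments in cells lacking both liver X receptors, LXR alpha and LXR beta (LXR-DKO), which are nuclear receptors for oxysterols. The labels used here do not say how many mice gave the marrow of a culture or whether marrow was pooled.

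LPS is bound by CD14 and by the TLR4 and MD-2 complex on the surface of myeloid cells. One branch of signalling, through the adaptor MyD88, activates NF-kappaB and the MAP kinases and drives cytokine and chemokine genes. The other branch, through the adaptor TRIF, leads to interferon beta, which is secreted and acts back through its receptor on a large set of antiviral genes. The change of dendritic cells under such signals is known as maturation, in which the uptake of antigen gives way to its presentation to T cells, and lymph node homing receptors and costimulatory ligands appear at the surface.

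Each condition was 1 array. Differences therefore lack a replicate check, p-values are not given, and a value describes the libraries rather than the conditions. Signals are linear MAS5 intensities in arbitrary units, and each signal belongs to 1 probe set, so that signals of different genes cannot be ranked. A floor was set at the median of all signals on the 4 arrays, 28.9. Where 1 of a gene's WT signals lay under it, the ratio was taken against the floor and is a lower limit on the size of the difference, written "at least", or "at most" for a negative log2 ratio. The only error inside these data is the spread between probe sets of the same gene, an SD of 0.29 on the log2 scale over 4674 genes. Ratios are log2 of WT LPS over WT control unless a fold is named, and a gene is called higher or lower at 2-fold or more.

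At that threshold 336 genes, 2.93% of those measured, were higher with LPS and 548 genes, 4.79%, were lower. The median log2 ratio of all measured genes was -0.054, and 79.7% of them lay within 1.5-fold. The higher side reached further. There were 40 genes at least 8-fold higher against 7 at least 8-fold lower, and 21 against 0 at 16-fold. Higher calls made up 38.01% of all calls as deposited, and 50.6% when the arrays were scaled to a common 75th percentile, which moved the median of all genes by 0.12. Of the 146 higher genes with more than 1 measured probe set, 138 had all of them on the same side of 0 and 79 had all of them past 2-fold. For lower genes these were 223 and 106 of 241. A WT control signal under the floor underlay 55 higher calls, and a WT LPS signal under it 102 lower calls.

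**Figure D1:**
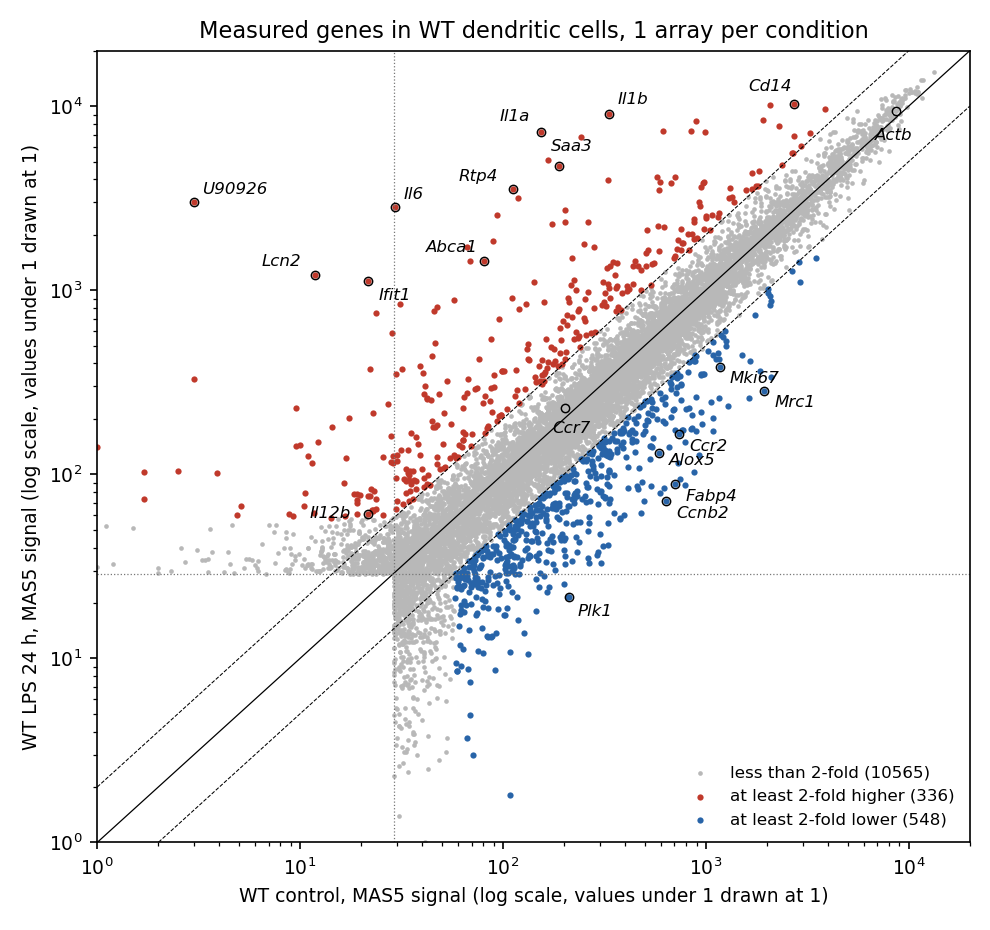
Signal of each measured gene in the WT control (horizontal) and WT LPS (vertical) dendritic cells, both on log scales, with 1 array per condition. Red points are the 336 genes at least 2-fold higher with LPS and blue points the 548 at least 2-fold lower, and the dotted lines mark the floor of 28.9, the solid line equal signals and the dashed lines 2-fold. Il6 stands farthest from the diagonal among labelled genes measured above the floor on both arrays.

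The arrays carried the transcripts of the collected cell type. Itgax had a signal of 5012 without LPS and 6093 with it, and Cd74, the invariant chain of MHC class II, 7832 and 7438 in the same order. Macrophage genes were in part above the floor as well. Csf1r, the receptor for the macrophage growth factor M-CSF, gave 7831 and 9551, and Adgre1, which encodes the F4/80 antigen, 4232 and 7263. Of the 24 macrophage and monocyte markers on the array 19 were measured. Apoe, C1qa, Cd163, Timd4 and Vcam1 were under the floor on both arrays. Of the 22 conventional dendritic cell markers on the array 19 were measured, among them Irf8 at 653.5 and 590 and Irf4 at 313 and 579. Zbtb46 was just above the floor at 39.4 and 29.0. Under it were Flt3 at 9.9 and 13.4, Dpp4 at 15.9 and 8.8 and Xcr1 at 5.5 and 2.9. The summed signal of 22 conventional dendritic cell markers was 26781 without and 27275 with LPS, and that of 24 macrophage and monocyte markers 64865 and 79097. Such sums are weighted to the brightest probe sets and cannot be compared between lists. In bulk RNA such as this, fewer cells of a type and less RNA per cell cannot be told apart. The reference genes Actb, at 8616 and 9416, and Hprt, at 2700.3 and 2290.3, differed by less than 2-fold. The 3′ over 5′ signal ratio of the control probe sets was 1.11 and 1.26 for Actb and 0.818 and 0.842 for Gapdh, control first.

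With signals as deposited, the chains of the receptor complex were under 2-fold, while its co-receptor and a brake on its signalling were past it. Of the LPS receptor, Toll-like receptor and adaptor genes, 2 of the 26 measured passed 2-fold upwards and 0 downwards, around a median of 0.26. After scaling to a common 75th percentile 4 passed upwards, so members close to the threshold depend on the scaling. Cd14, which hands LPS to the receptor, had a signal of 2727 without LPS and 10289 with it, a 3.77-fold difference. Irak3, which encodes the inhibitory kinase IRAK-M, went from 334 to 1035, or 3.099-fold. Tlr4, the receptor chain, was at 971 and 1165, a log2 ratio of 0.26 that is inside the probe set spread, and Ly96, the MD-2 chain, at 372 and 689, a log2 ratio of 0.89 that is outside it.

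Feedback inhibitors of NF-kappaB were among the higher genes. Of 23 measured NF-kappaB subunits and inhibitors, 5 were higher, 0 lower and the median was 0.70. Nfkbiz, a nuclear cofactor needed for a later wave of genes including Il6, had signals of 38.9 and 389, or 9.997-fold. Tnfaip3, the ubiquitin-editing enzyme A20 that ends the signal, had 758 and 2146. The adaptor Traf1 (2.52), the inhibitor Nfkbie (1.34) and the survival gene Birc3 (1.13) were also past 2-fold. Nfkbia, the inhibitor that is rebuilt within the first hour of signalling, was below that threshold at 0.81. For the MAP kinase phosphatases and mRNA decay genes, 5 of 17 were higher. They were Zc3h12c (1.82), Zc3h12a (1.72, with another probe set at 0.52), whose product Regnase-1 cuts cytokine mRNAs, and the phosphatase genes Dusp16 (1.53), Dusp14 (at least 1.21) and Dusp4 (1.15).

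At 24 h the early-response transcription factors were mostly not higher. Maff was the 1 higher member of 24, at 1.11, and 5 were lower, with a median of -0.14 that became 0.15 with the floor at the 75th percentile of all signals. Myc, a driver of growth and division, had signals of 448 and 133. Klf4 (-1.47), Ier2 (-1.05) and Klf2 (-1.02) were lower too. Egr3 was lower on its brighter probe set (-1.90), while its other probe set gave 0.57. Fos, a component of AP-1, was at -0.30.

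Secreted inflammatory cytokines gave some of the widest differences. Of 23 measured members, 11 were higher and 2 lower, with a median of 0.97 that came to 0.51 under the higher floor at the 75th percentile, with 6 of 16 higher. The usual floor was reached by 19 members without LPS and by 23 with it. Il6, which encodes the main inducer of the hepatic acute phase, had a signal of 29.3 without LPS and 2829 with it, a 96.5-fold difference. The interleukin 1 genes followed, with Il1a at 154 and 7258 (47.1-fold) and Il1b at 332 and 9012 (27.1-fold). Inhba, the activin A subunit, went from 167 to 5108, and Fst, whose product follistatin binds and blocks activin, from 31.1 to 838. The ligand and its antagonist were thus 30.5-fold and 26.9-fold higher. Tnf was at 356 and 1209 (3.397-fold). Cxcl16, a membrane-bound chemokine and scavenger receptor kept on this list, had a log2 ratio of 3.17.

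The interleukin 12 family was uneven. Il12a, the p35 chain, was under the floor without LPS at 9.5 and at 228 with it, which is at least 7.88-fold higher. Il12b, the p40 chain shared by interleukins 12 and 23, gave 21.7 and 61.0, or at least 2.11-fold. Il23a, the p19 chain, was under the floor on both arrays at 5.1 and 13.7, as was the regulatory cytokine Il10 at 11.7 and 8.0, so neither was measured. Il18, whose product is stored as a precursor and cut by caspase 1, was lower: 707 without and 174 with LPS. Ltb, the lymphotoxin beta gene, was at -1.30. On the receiving side, Il1r2, a decoy that binds interleukin 1 without signalling, gave 896 and 172 and so was 5.23-fold lower, whereas the signalling receptor Il1r1 was higher at 1.52. Casp4, the mouse caspase 11 gene whose product binds intracellular LPS, was higher at 1.59.

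**Figure D2:**
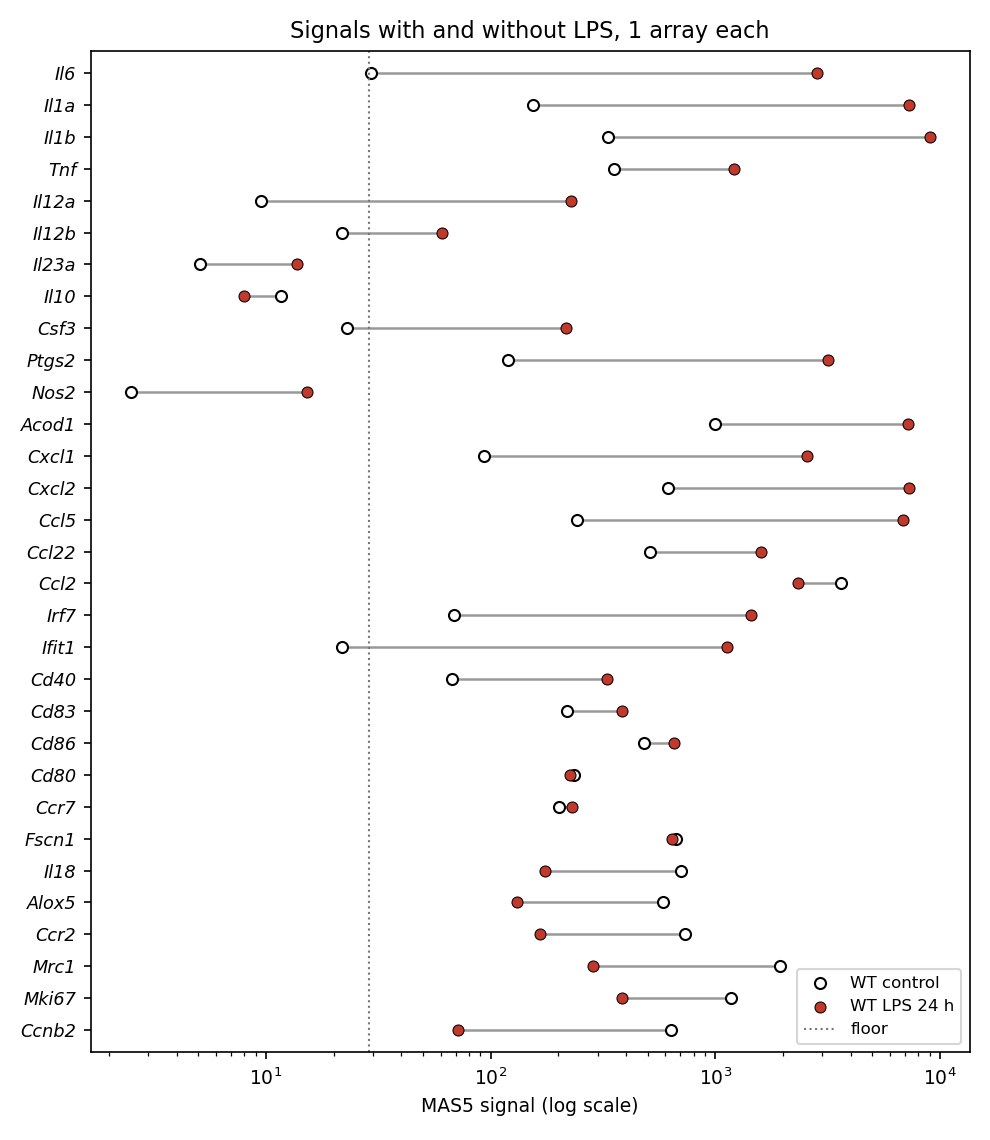
MAS5 signals of single genes without (open circles) and with (filled circles) 24 h of LPS in WT cells, on a log scale, 1 array each, with the floor of 28.9 as a dotted line. The circles of Il6, Il1a, Il1b and Ptgs2 lie 96.5-fold, 47.1-fold, 27.1-fold and 26.6-fold apart, those of Ccr7, Cd80 and Fscn1 nearly coincide, and Il18, Alox5, Ccr2, Mrc1, Mki67 and Ccnb2 run the other way.

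Genes usually known from the liver's acute phase, from neutrophil granules and from metal sequestration were mostly higher. Of 14 measured members 11 were higher and 0 lower. The floor was reached by 9 without LPS and by 14 with it. Members measured through the LPS array alone could only have a positive ratio. The median of the 14 was 2.36. That was the highest of the lists except with the floor at the 75th percentile, where it was 2.08 and the CXC chemokines stood above it. Without a floor the median was 1.72 over 17 members. Lcn2, which encodes a protein that captures bacterial siderophores, was at 11.9 and 1217 and so at least 42.1-fold higher. Orm1 and Vnn3, an acute-phase glycoprotein and a pantetheinase, were under the floor without LPS and at least 26.00-fold and at least 20.2-fold higher. Saa3, the serum amyloid A gene of macrophages, had signals of 189 and 4749.7, while its liver relatives Saa1 (9.1 and 10.2) and Saa2 (19.6 and 22.5) were under the floor on both arrays. Serpinb2, a plasminogen activator inhibitor, gave 842 and 7355 and Slpi, a leukocyte protease inhibitor, 2.51 as a log2 ratio. Hamp, which encodes the iron hormone hepcidin, belongs to the iron list and was at least 5.18-fold higher.

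Prostaglandin and leukotriene genes were called in both directions. Ptgs2, the inducible cyclooxygenase 2, had signals of 119 and 3174 (26.6-fold) and Ptges, the enzyme that makes prostaglandin E2 from its product, 98.4 and 363 (3.69-fold). The 4 lower members of the 14 measured lie on other branches. Alox5, the first enzyme of leukotriene synthesis, went from 585 to 131, and Ltc4s, which makes leukotriene C4, from 626 to 239.9. Hpgds, for prostaglandin D2, was at -1.51 and Tbxas1, for thromboxane A2, at -1.03. The leukotriene genes Alox5ap (-0.17) and Lta4h (-0.30) were under 2-fold, so the leukotriene branch was not lower throughout. The list as a whole had 2 higher members and a median of -0.23. Under each of the 3 other scalings 3 members were lower.

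Neutrophil attractants and the T cell and monocyte attractant Ccl5 were higher, while the monocyte attractants Ccl2 and Ccl7 were not. Of 9 measured CXC chemokines 6 were higher and 0 lower, with a median of 2.12, which ranged from 0.64 without a floor to 3.21 with the higher floor. The neutrophil attractants Cxcl1, Cxcl2 and Cxcl3 gave 93.5 and 2569, 615 and 7309 and 899.5 and 8339, which are 27.5-fold, 11.9-fold and 9.27-fold differences. Cxcl5, of the same group, was at least 6.26-fold higher. Cxcl10, an interferon-induced attractant of T cells, differed by less, at 31.3 and 136 (4.35-fold), and its relatives Cxcl9 (0.5 and 3.9) and Cxcl11 (15.3 and 4.0) were under the floor on both arrays. Among CC chemokines 3 of 9 measured were higher and the median was 0.32, or 0.17 after quantile normalization. Ccl5, an attractant of T cells and monocytes, had a signal of 243 without LPS and 6830.4 with it (28.2-fold). Ccl22 and Ccl17, which act on CCR4-bearing T cells, were at 509.8 and 1595 and at 935 and 2851. The monocyte attractants Ccl2 and Ccl7 were at log2 ratios of -0.64 and -0.73, and Ccl3 and Ccl4 at 0.32 and 0.27, all under 2-fold.

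The promoters of these genes were searched for a strict NF-kappaB site (GGG, any 2 bases, then TTTCC, on either strand) in the 250 bases before the transcription start in the RefSeq promoter table (GRCm38.p6). It was found in 17 of 73 promoters of the cytokine, chemokine and NF-kappaB lists together, 23.3%, and in 1.41% of all 32851 promoters. Counted by gene, 15 of the 59 list genes with a promoter in the table held the site, and 5 of the 19 called ones. By list the called holders were 1 of 8 cytokines, 0 of 2 CC chemokines, 3 of 5 CXC chemokines and 1 of 4 NF-kappaB genes. The promoters of the 3 list members with the highest LPS ratio among those holding the site are shown, those of Il6, Cxcl1 and Cxcl2, because these genes carry the widest cytokine and chemokine differences with such a site, which is in capitals. Il6 has 1 match, ending 35 bases before the start, and Cxcl1 and Cxcl2 each have a pair of them within 100 bases of the start. They lie at chr5:30012864-30013113, chr5:90890995-90891244 and chr5:90903649-90903898, all on the + strand, and are written 5′ to 3′. A match describes letters and is not evidence of binding.
Il6: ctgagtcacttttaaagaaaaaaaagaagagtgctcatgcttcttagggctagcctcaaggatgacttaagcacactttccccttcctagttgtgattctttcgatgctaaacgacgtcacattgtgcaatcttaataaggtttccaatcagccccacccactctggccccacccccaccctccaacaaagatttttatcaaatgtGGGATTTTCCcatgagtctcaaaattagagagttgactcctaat
Cxcl1: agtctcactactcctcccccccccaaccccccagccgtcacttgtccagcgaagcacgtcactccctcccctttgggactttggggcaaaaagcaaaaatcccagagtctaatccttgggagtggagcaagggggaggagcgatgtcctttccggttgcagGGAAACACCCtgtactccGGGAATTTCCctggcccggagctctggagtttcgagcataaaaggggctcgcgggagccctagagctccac
Cxcl2: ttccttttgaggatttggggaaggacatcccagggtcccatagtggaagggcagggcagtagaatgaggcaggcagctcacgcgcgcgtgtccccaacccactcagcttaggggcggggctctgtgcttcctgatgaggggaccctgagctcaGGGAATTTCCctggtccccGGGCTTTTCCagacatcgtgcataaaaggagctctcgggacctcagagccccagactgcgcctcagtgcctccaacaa

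Receptors for attractants differed in both directions. Of 18 measured, 5 were higher and 4 lower, with a median of 0.15, or 0.081 after quantile normalization. With the higher floor 1 was lower. Ccr2, the receptor that brings monocytes out of the marrow, went from 736 to 165. Gpr183, an oxysterol receptor that positions dendritic cells in the spleen, was at -1.70, C5ar1 for the complement fragment C5a at -1.47 and the leukotriene receptor Cysltr1 at -1.02 (another probe set at -0.23). On the higher side, Fpr2, which senses formyl peptides and serum amyloid A, gave 1309 and 3611. The sphingosine 1-phosphate receptors S1pr3 (1.90, with another probe set at 0.68) and S1pr1 (1.23) and the chemerin receptors Ccrl2 (1.71) and Cmklr1 (1.05) were higher as well. Ccr7, the lymph node homing receptor of mature dendritic cells, was not among them, at 201 and 229.8 and a log2 ratio of 0.19. In LXR-DKO cells the same Ccr7 probe set had a log2 ratio of 2.45.

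Genes of the interferon branch were higher in part, although interferon beta itself was not measured. Ifnb1 was under the floor on both arrays at 23.7 and 2.2. Of 25 measured interferon ligands, receptors, sensors and transcription factors, 7 were higher and 0 lower. Irf7, the factor that amplifies interferon production, had signals of 68.6 and 1436 (20.9-fold). The cytosolic RNA sensors Ifih1 (MDA5) and Ddx58 (RIG-I) were at log2 ratios of 2.03 and 1.81, the nucleic acid sensor Zbp1 at 2.43, and Irf9, a subunit of the factor that binds interferon response elements, at 1.25. Dhx58, a regulator of those sensors, gave 2.49 on its brightest probe set and 0.32 on its lowest. Irf2, known as a repressor of interferon targets, was at -0.94, short of 2-fold.

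Among the antiviral effectors, 25 of 41 measured members were higher and 1 lower, and the median was 1.45, or 0.99 with the higher floor. The usual floor was reached by 37 members without LPS and by 41 with it. Ifit1 and Ifit3, which bind foreign RNA caps or assist in doing so, were at 21.7 and 1126 (at least 38.9-fold) and 45.5 and 768 (16.9-fold). Oasl2 of the oligoadenylate synthetase family gave 89.2 and 1855. Rsad2, which encodes viperin, and its genomic neighbour Cmpk2, a nucleotide kinase, gave 203 and 2725 and 40.5 and 356. Rtp4 reached 31.7-fold on its brightest probe set, at 112 and 3549.9, but its other probe set had a log2 ratio of 0.54. The 1 lower member was Ifitm6, a myeloid gene of the interferon-induced transmembrane family, at -1.04. Of 10 interferon-inducible GTPases, which attack the vacuoles of intracellular pathogens, 6 were higher with a median of 1.29. Gbp6 was at 29.6 and 349.8, Gbp2 at 595 and 3876 and Gbp3 at 129.6 and 838, while Gbp8 was at a log2 ratio of -0.21. Schlafen genes had 3 of 6 higher, with Slfn5 at 3.30 on its brightest and 0.36 on its lowest probe set, Slfn8 at 2.07 and Slfn1 (at least 1.35), against -0.93 for Slfn9.

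An interferon-stimulated response element, spelled as GAAA, any 2 bases and GAAA and searched on both strands of the same 250 bases, was present in 15 of 47 promoters of these effector and GTPase genes, 31.9%, and in 2.98% of all promoters. Taken by list it was in 9 of 39 effector promoters and 6 of 8 GTPase promoters. Counted by gene, 15 of the 37 list genes with a promoter in the table held the element, and 11 of the 22 called ones. The promoters with the 3 highest ratios among holders are printed to show how the element recurs, with the matches in capitals. They appear as TTTC runs because they match on the opposite strand. Ifit1 and Ifit3 each have 2 matches with the same pair of sequences, and Rsad2 has 1. Their positions in GRCm38.p6 are chr19:34640639-34640888 and chr19:34583279-34583528 on the + strand and chr12:26456453-26456702 on the - strand.
Ifit1: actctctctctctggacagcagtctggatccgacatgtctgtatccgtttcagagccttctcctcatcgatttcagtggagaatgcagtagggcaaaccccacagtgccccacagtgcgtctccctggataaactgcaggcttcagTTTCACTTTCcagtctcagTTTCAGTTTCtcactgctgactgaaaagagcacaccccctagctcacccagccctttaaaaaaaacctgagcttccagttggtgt
Ifit3: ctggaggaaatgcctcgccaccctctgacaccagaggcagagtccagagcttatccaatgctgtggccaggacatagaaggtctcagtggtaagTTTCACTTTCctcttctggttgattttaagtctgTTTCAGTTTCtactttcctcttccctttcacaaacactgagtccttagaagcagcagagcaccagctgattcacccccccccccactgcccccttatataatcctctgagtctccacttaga
Rsad2: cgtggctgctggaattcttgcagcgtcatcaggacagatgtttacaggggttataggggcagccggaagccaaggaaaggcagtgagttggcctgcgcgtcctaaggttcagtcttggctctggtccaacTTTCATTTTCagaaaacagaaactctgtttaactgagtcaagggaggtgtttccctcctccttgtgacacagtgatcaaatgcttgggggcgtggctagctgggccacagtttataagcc

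**Figure D3:**
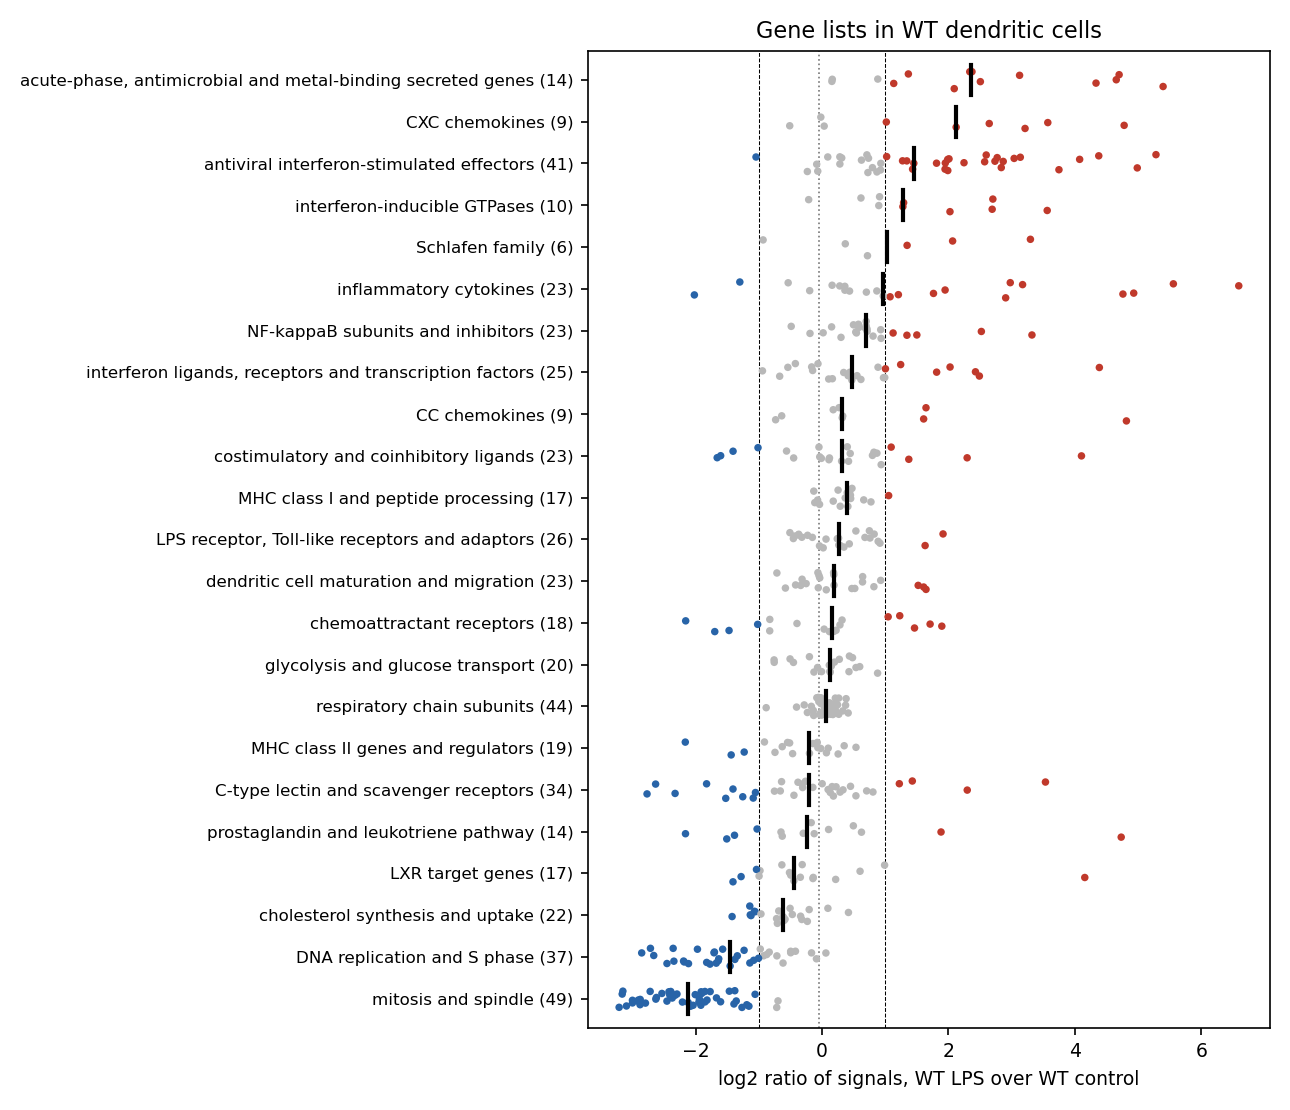
Log2 ratio of signals, WT LPS over WT control, for the members of gene lists, 1 point per measured gene, with the number measured in brackets and the median of each list as a bar. Red and blue points lie past 2-fold (dashed lines), and the dotted line is the median of all measured genes. Acute-phase genes and CXC chemokines have medians above 2 and mitosis genes a median under -2, while respiratory chain genes gather near 0.

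Antigen presentation genes differed less than the secreted products. No MHC class II gene or regulator was higher, and 3 of 19 measured were lower, with a median of -0.20. The lower ones act in loading peptide: H2-DMb2 went from 775 to 173, H2-DMa from 3499 to 1492, and H2-Ob, a brake on the same step, was at least 2.71-fold lower. The presenting chain H2-Ab1 gave 2494 and 1709.8, and Ciita, the master regulator of the class II genes, 80.6 and 42.9 (-0.91), both under 2-fold, although the Ciita probe set brightest in WT cells gave -1.58. For MHC class I and peptide processing 1 of 17 was higher, which was Tapbp, the tapasin gene, at 2663 and 5533. Tap1 (0.78) and B2m (0.47) had smaller positive ratios.

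The signals that dendritic cells give to T cells were also mixed. Costimulatory and coinhibitory ligands had 4 higher and 4 lower of 23, with a median of 0.31. It was 0.11 when probe sets with a suffix letter in their names were left out. With the higher floor 1 was lower. Cd40, which receives help from T cells, was at 67.4 and 331 (4.91-fold). Pdcd1lg2, a ligand of the inhibitory receptor PD-1, was at 1.37 and Slamf7 at 1.09. Slamf6 was at 4.10 on its brightest probe set, with the lowest of 3 at 0.65. The classical ligands of CD28 were under 2-fold, with Cd86 at 482 and 657 and Cd80 at 234 and 227, as was the maturation marker Cd83 at 218 and 385. Icosl, the ligand of ICOS, was lower, from 104 to 33.0, with Cd244a (-1.60), Slamf9 (-1.41) and Tnfsf4, the OX40 ligand (-1.01). In the wider TNF superfamily Tnfrsf9 (4-1BB) was higher at 2.13 and Tnfsf14 lower at -1.06. On the list of maturation and migration genes 3 of 23 were higher, Ccl22, Ccl17 and Ido1 (at least 2.87-fold), and the actin bundler Fscn1 was at -0.058.

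Receptors for uptake were more often lower than higher, as were all measured genes (4.79% lower and 2.93% higher). Of 34 measured C-type lectin and scavenger receptors 9 were lower and 4 higher, with a median of -0.20, which was -0.31 with the higher floor, where 5 were lower and 3 higher. Mrc1, the mannose receptor, had a signal of 1939.9 without LPS and 285 with it (6.81-fold lower), and the galactose-binding lectin Mgl2 534 and 86.2 (6.196-fold lower). Clec4b1 (-2.32), Asgr2 (-1.82), Clec10a (-1.52) and the apoptotic cell receptor Mertk (-1.41) were lower too. In the other direction, Olr1, a receptor for oxidised lipoprotein, went from 202 to 2344 and Clec4e, the receptor Mincle for mycobacterial glycolipid, from 2076 to 10209. Treml2 (1.43) and Pilrb1 (1.22) were also higher. Complement factor B, encoded by Cfb and made by activated macrophages, gave 66.7 and 1720.2 (25.8-fold), and the inhibitory receptor Fcgr2b 1.13 as a log2 ratio. C1qb was at least 3.75-fold lower, the neonatal Fc receptor Fcgrt was at -1.21 and properdin, Cfp, at -1.07 (another probe set at -0.28).

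Markers of cell identity had medians near 0 as lists. Of 19 measured conventional dendritic cell markers 1 was higher, Cd1d1 (1.31), and 4 lower, Kmo (-1.70), Cbfa2t3 (-1.56), Clec10a and Cd209a (at most -1.09). Their median of -0.15 became 0.22 with the higher floor, where 0 were lower. Of 19 macrophage and monocyte markers 1 was higher, Cd14, and 4 were lower, Mrc1, Ccr2, C1qb and Mertk. Their median of 0.18 was -0.23 without a floor, and 7 were lower with the floor at the 25th percentile.

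Arginine and tryptophan metabolism showed single genes far from 0 on a list whose median was 0.16, or 0.46 without suffixed probe sets. Of 16 measured members 7 were higher and 3 lower. Slc7a2, the arginine transporter of activated macrophages, was at 705 and 4098 and the mitochondrial arginase Arg2 at 1.85. Gch1, which makes the cofactor of nitric oxide synthase, was at 1.36. The synthase Nos2 itself (2.5 and 15.3) and Arg1 (1.3 and 22.3), the genes most used to name activation states of macrophages, were under the floor on both arrays. In the kynurenine pathway Ido1 was higher while the later enzymes Kmo (-1.70) and Kynu (-1.58) were lower.

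Central carbon metabolism differed at few points. Acod1, which makes itaconate from a TCA cycle intermediate, went from 994 to 7208 (7.26-fold), and Suclg2, a succinyl-CoA ligase subunit, was lower at -1.58. No other itaconate or TCA gene of 26 passed 2-fold. Of 20 glycolysis and glucose transport genes 0 were called in either direction, with a median of 0.13. The lactate exporter Slc16a3 (0.88), hexokinase Hk2 (0.60) and the transporter Slc2a1 (0.43) stood above that median. None of 44 respiratory chain subunits was called, and their log2 ratios ran from -0.88 to 0.41 around a median of 0.070, which was -0.030 after quantile normalization.

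Of 22 measured cholesterol synthesis and uptake genes 6 were lower and 0 higher, with a median of -0.61. The lower calls were 2 after scaling to the 75th percentile and 3 after quantile normalization. Fdps, the farnesyl diphosphate synthase gene, had signals of 2659 and 1279, and Dhcr7, the last step to cholesterol, gave the lowest log2 ratio at -1.42. Mvk, Tm7sf2, Stard4 and Lss lay between -1.14 and -1.07. A sterol regulatory element, ATCAC followed by CCCAC on either strand, was in 0 of 24 of their promoters and in 0.0731% of all, so the search says nothing of the list. Abca1, the cholesterol exporter and an LXR target, was higher, at 81.1 and 1447 (17.8-fold), with its 3 probe sets at 1.62 to 4.16. Among the 17 measured LXR targets it was the 1 higher gene, and 3 were lower: Mertk, Fasn (-1.28), which makes fatty acids, and Scd1 (-1.04), which desaturates them. Under each of the 3 other scalings there were 2 higher and 2 lower LXR targets. Nr1h3, the LXR alpha gene, was at 109 and 54.5 in WT cells, just under 2-fold lower.

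On the list of PPAR gamma and lipid storage genes there were 2 higher and 5 lower members of 28 and a median of -0.12, which was 0.0096 after scaling to the 75th percentile. The lower members were 1 with the higher floor and 2 without suffixed probe sets. Fabp4, the fatty acid carrier that PPAR gamma drives, had a signal of 708 without LPS and 88.4 with it (8.01-fold lower), and Pparg itself 171 and 44.4 (3.85-fold lower). Fads2 (-1.81, with another probe set at -0.087), Elovl6 (-1.51) and Angptl4 (-1.25) were lower. The retinoic acid synthesis gene Aldh1a2 was higher (2.13), as was Hilpda, which protects lipid droplets (2.04).

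Cell division genes had the largest share of lower members among the lists. Of 49 measured mitosis and spindle genes 47 were at least 2-fold lower and 0 higher, all 49 had a log2 ratio under 0, and the median was -2.12, beside -0.054 for all genes. With the higher floor it was -1.16, with 22 of 37 measured lower. Nuf2, a kinetochore protein gene, went from 303 to 32.8 (9.24-fold lower) and Ccnb2, cyclin B2, from 635 to 71.6 (8.87-fold). Cdc20, which activates the ubiquitin ligase that ends mitosis, gave 875 and 103, Birc5, the survivin gene, 749 and 93.8 and Cdca3 786 and 87.9. The condensin gene Ncapd2 and the kinase genes Aurkb and Pbk were at -2.998, -2.91 and -2.95, and Nusap1 and Ube2c at -2.88 and -2.91. Plk1, another mitotic kinase gene, was at least 7.34-fold lower. Mki67, the proliferation marker, was at 1169 and 385. The members that did not pass 2-fold were Cdc25c (at most -0.70) and Incenp (-0.72).

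For DNA replication 25 of 37 measured genes were lower, 0 higher and the median was -1.45, or -0.74 with the higher floor, where 10 of 30 were lower. Mcm7, a subunit of the replicative helicase, had signals of 1085 and 172 and Mcm5, another subunit, a log2 ratio of -2.45. The ribonucleotide reductase genes Rrm1 and Rrm2, which supply deoxynucleotides, were at -2.35 and -2.34, and Uhrf1, which copies DNA methylation, at -2.71. Tk1 was at least 7.22-fold lower. Pcna (-0.17), the sliding clamp also used in repair, and Fen1 (-0.087) were near 0. In G1 control E2f2 was at least 6.89-fold lower, with another probe set at a log2 ratio of -1.39. Cyclin D1, Ccnd1, was at 533 and 121 and the inhibitor Cdkn2c at -2.07. The inhibitors Cdkn1a (-0.14) and Cdkn1b (-0.19) were not past 2-fold, nor was E2f1 (0.062).

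Promoters of late cell cycle genes carry the cell cycle homology region (CHR), spelled TTTGAA here, near CCAAT boxes. The CHR letters were found on either strand in 17 of 42 promoters of the mitosis list, 40.5%, against 15.99% of all promoters. CCAAT was found in 32, 76.2%, against 33.8%. Neither sequence contains the other. The promoters of Ccnb2, chr9:70421555-70421804, and Cdc20, chr4:118437344-118437593, both on the - strand, are printed because these have the lowest ratios among holders, with the TTTGAA letters in capitals. In Cdc20 the match ends 13 bases before the start and in Ccnb2 162 bases before it. A match describes letters and does not show that they act as a CHR.
Ccnb2: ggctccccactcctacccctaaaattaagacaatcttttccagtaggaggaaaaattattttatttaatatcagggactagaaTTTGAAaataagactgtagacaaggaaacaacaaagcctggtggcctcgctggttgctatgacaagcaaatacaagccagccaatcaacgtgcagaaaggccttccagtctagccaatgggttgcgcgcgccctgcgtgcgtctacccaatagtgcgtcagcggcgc
Cdc20: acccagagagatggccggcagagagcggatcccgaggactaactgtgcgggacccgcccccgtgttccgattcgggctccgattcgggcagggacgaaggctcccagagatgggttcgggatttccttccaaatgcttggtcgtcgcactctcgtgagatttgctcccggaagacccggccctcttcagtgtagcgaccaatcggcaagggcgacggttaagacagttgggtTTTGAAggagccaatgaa

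Some granulocyte precursor genes were lower alongside the division genes. Ms4a3, a marker of granulocyte and monocyte progenitors, was among the 15 lowest genes, at 331 and 41.3 (8.02-fold lower), and the primary granule protease genes Ctsg and Elane were at 156 and 48.1 and 80.0 and 18.9. S100a9 gave 106 and 24.8, and Csf3r, the G-CSF receptor, was at least 2.15-fold lower. Of 12 measured neutrophil and granulocyte precursor markers (16 on the array) 4 were lower and 1, Lcn2, higher, with a median of -0.48 (0.25 with the higher floor, where 0 were lower) and a summed signal of 16236 without and 17088 with LPS. Ngp, Ltf and Cxcr2 were under the floor on both arrays. Mast cell, basophil and eosinophil markers had 8 of 18 measured, 1 higher (Hdc, the histamine-forming enzyme gene, at least 11.4-fold) and 1 lower (Cpa3, -1.36), and summed to 732 and 916. What part precursors or granulocytes have in the lower division genes was not tested.

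Markers of lymphoid lineages were mostly under the floor. Of 17 T and natural killer cell markers 4 were measured and none called, and Cd3e (10.5 and 19.2) and Cd3g (8.7 and 2.6) were under the floor; the list summed to 319.9 and 350.2. Of 13 B cell markers 6 were measured, with Blnk the 1 called (1.07), Cd79a at 4.9 and 1.2 and Ms4a1 at 20.5 and 19.1, and sums of 2247 and 4076. The plasmacytoid dendritic cell list (6 of 11 measured) summed to 1789.7 and 4618, with Bst2, also an interferon-stimulated gene, the 1 called (2.57) and Siglech under the floor at 19.5 and 6.3. Of 12 measured stromal, erythroid and megakaryocyte markers 3 were higher, with sums of 3567 and 6361. They were Dcn, the decorin gene of fibroblasts, at 120.2 and 788, Lum (at least 2.22-fold), and the platelet chemokine Pf4 (1.02). The part of such cells in the higher genes was not tested.

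The remaining lists had medians between -0.12 and 0.32, with single called genes. In antioxidant defence 3 of 28 were higher, among them Sod2, the mitochondrial superoxide dismutase and an NF-kappaB target, at 2283 and 7758, and the cystine transporter Slc7a11 at 1.26. Mgst3 was lower at -1.46. Hmox1, haem oxygenase 1, was at 1.05. Of 17 cell death genes 2 were higher, both inhibitors of death: Cflar (1.07) and Birc3. Of 23 ATF4 and unfolded protein response genes 1 was higher, Ddit4 (1.24), and 2 lower, the serine synthesis gene Phgdh (671 and 205) and the amino acid transporter Slc7a5 (-1.61). Mmp14 (1.82) and Mmp9 (1.30), proteases of the extracellular matrix, were higher, as was Mmp3 (at least 8.29-fold), and the integrin Itgb7 lower (-1.12). Cathepsin K, Ctsk, was the 1 called of 29 lysosomal genes (1.01). Among SOCS and cytokine receptor genes 3 of 24 were higher, including Socs3, which limits interleukin 6 signalling, at 1301 and 3185, and Il21r at 1.74. None of 18 ribosomal and reference genes was called, with a median of -0.12, or 0.014 after scaling to the 75th percentile.

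The lists held 132 of the higher genes, 39.3%, and 138 of the lower, 25.2%. Among called genes outside them, U90926 was under the floor without LPS at 3.0 and at 3014 with it, at least 104-fold higher. Gsta2, a glutathione transferase gene, gave 22.2 and 375 (at least 12.97-fold). On the lower side, genes outside the division lists included Perp, a p53 target of cell junctions (at least 5.53-fold lower), Cldn1, a tight junction gene (at least 5.04-fold lower), and Frmd4b (at least 5.71-fold lower). Lrr1, Rad51ap1, Fignl1, Kntc1 and Cenpi, which serve replication, DNA repair or mitosis, had log2 ratios of -2.37 or lower on their brightest probe sets. Weaker probe sets of Rad51ap1 and Lrr1 gave -0.92 and -1.02.

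Set beside the cells lacking both LXRs, and with signals as deposited, WT cells had more lower calls and fewer higher calls. Among the 10764 genes that both genotypes measured, 319 were higher with LPS in WT and 631 in LXR-DKO, and 202 in both. The shared genes are 63.3% of the WT calls and 32.01% of the LXR-DKO calls. On the lower side there were 531 and 188, with 62 in both, 11.7% and 32.98%. Over all genes measured in LXR-DKO cells 6.23% were higher and 1.82% lower. All these counts use the signals as deposited. The array median went from 27.6 without to 25.9 with LPS in WT and from 30.1 to 32.9 in LXR-DKO. Scaling to a common 75th percentile gave 446 higher and 435 lower genes in WT. The LXR-DKO calls were not recounted under other scalings, and the part of scaling in the genotype difference was not tested. The median LXR-DKO log2 ratio of the WT higher genes was 1.43 and that of the WT lower genes -0.50, beside 1.53 and -1.39 in WT, where the ratios chose the genes. The genotypes share no array, and with 1 array a group no difference between them was tested.

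By group, the mitosis median was -2.12 in WT and -0.70 in LXR-DKO, and that of DNA replication -1.45 and -0.47. Antiviral effectors were at 1.45 and 0.90. Their summed signals, control first, were 27616.5 and 61443 in WT and 45088 and 60774.5 in LXR-DKO. The sums thus differed more without LPS than with it. The order of the medians was the other way for costimulatory ligands, 0.31 and 1.05, and for maturation and migration genes, 0.18 and 1.27. Single genes differed both ways. Il12b had a log2 ratio of at least 1.08 in WT and 4.86 in LXR-DKO, and Acod1 2.86 and 5.83. Gbp3 (2.69 and 0.67) and Slamf6 (4.10 and 0.75) had the larger ratio in WT. Il18 was at -2.02 and -0.12, and Alox5 at -2.16 and -0.41. Fabp4 was lower in WT and higher in LXR-DKO, at -3.001 and 1.65, with LXR-DKO signals of 46.9 without and 147 with LPS.

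**Figure D4:**
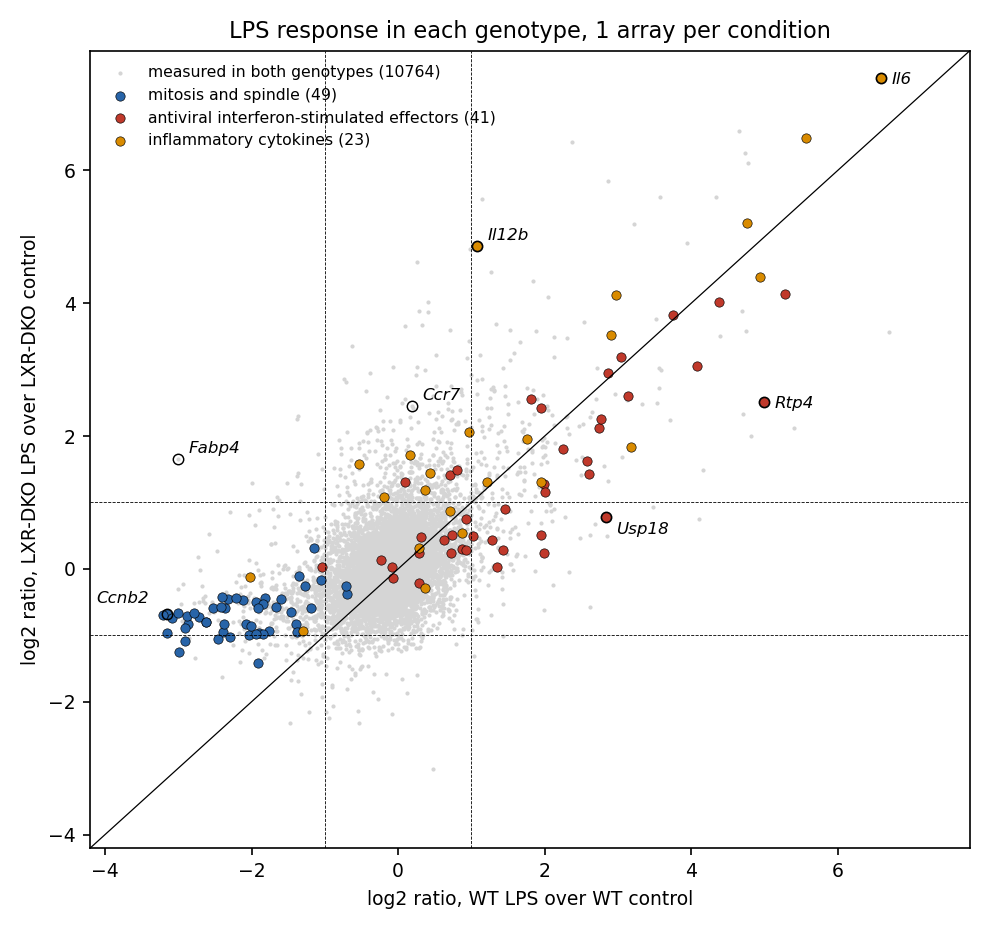
Log2 ratio with LPS in WT (horizontal) and in LXR-DKO (vertical) cells, 1 point per gene measured in both genotypes (10764, grey), with coloured points for 3 gene lists, a solid line of equal ratios, dashed lines at 2-fold and 1 array per condition. Mitosis genes lie far to the left and less far below 0 on the vertical axis, with medians of -2.12 and -0.70.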

How the data were processed

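Labelled RNA of 4 dendritic cell cultures was hybridised to 1 array each. The deposited values are linear intensity signals computed by the authors with MAS5, per the submitters' processing notes; its version and settings are not given in the sources used here. Their mean after removing 2% at each end was 200.0 on every array, so they were used with no further scaling. Array medians were between 25.9 and 32.9. The platform annotation gave 1 symbol to 34945 probe sets, several to 932 and none to 9160, and 34741 matched RefSeq gene numbers (GRCm38.p6).

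The probe set brightest on average across the 4 arrays stood for its gene. A gene was measured when either WT signal reached the floor, and lower signals were set to it. A gene that reached the floor on 1 WT array only could therefore differ only towards that array. With 1 array per group no test was possible, and precision is limited by that number of arrays.

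The members, the 48 gene lists and the naming rule were chosen with earlier results of these data known. Named are the 15 highest and 15 lowest genes above the floor, 8 per direction with a signal under it, up to 6 called members per direction and up to 4 others per list, and a fixed set of dendritic cell and reference genes. Of the list symbols 108 had no probe set with 1 symbol. 18 called genes with provisional names were counted, not named. Alternatives were other scalings, floors and probe set choices. Scripts (Python 3.11.15, pandas 2.3.3, numpy 2.4.6, scipy 1.17.1) were tested on simulated data.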

Additional observations from a re-analysis of the deposited data

Results flagged for a closer look

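With 1 array per condition, 3 named genes were at least 2-fold lower with LPS in WT cells and at least 2-fold higher in LXR-DKO cells, and the difference between the genotypes was not tested for any of them. Fabp4, the fatty acid carrier gene, had a log2 ratio of -3.001 in WT and 1.65 in LXR-DKO. Its signals were 708 and 88.4 in WT and 46.9 and 147 in LXR-DKO, control first, so the WT control array stood apart. Cpa3, a mast cell protease gene, was at -1.36 and 1.45, with signals of 113 and 43.8 and of 259 and 706. Tnfsf4, the OX40 ligand gene, was at -1.01 and 1.21, with signals of 124 and 61.5 and of 101 and 234. In all, 15 of the genes lower in WT and 2 of those higher in WT passed 2-fold the other way in LXR-DKO cells.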

How the results depend on the processing

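The number of called genes followed the floor. With the floor at the 25th percentile (8.80) there were 840 higher and 1239 lower genes, and with it at the 75th percentile (177) 188 and 150, so that the higher share of calls was 55.6%. Fewer dim genes are measured at the higher floor by construction. Under the other alternatives (3 scalings, no floor and 3 probe set choices) the counts stayed within 1.5 times. Scaling to a common 75th percentile gave 446 and 435, an even split, while 431 of the 548 lower genes remained. Of 209 named genes past 2-fold, 149 stayed past it under every alternative that gave a value, 39 lost it at the higher floor, 17 after quantile normalization, and 0 changed sign. Of 431 list medians under alternatives 403 moved by less than the probe set SD. The neutrophil median of -0.48 was 0.25 at the higher floor, and the mast cell median of -0.38 was 0.57 there and 0.0044 without a floor; the cause was not tested. No paired analysis was possible because each condition is 1 array. Signal near the floor limits what can be said of dim genes, and 1 array a group limits every ratio.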

Other observations

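Further genes outside the lists were chosen after their values were seen, and no test applies to them. On the higher side, Ly6i, of the Ly6 surface protein family, had signals of 57.3 without LPS and 884 with it (15.4-fold), and Ddx60, a helicase gene of the antiviral response, 31.8 and 373 (11.7-fold). Genes for the synthesis and for the breakdown of retinoic acid were both higher: Cyp26b1, which degrades it, gave 143 and 1113 (7.79-fold), beside the synthesis gene Aldh1a2 described above. Clmp, an adhesion molecule gene, was at 175 and 2289.9, and Egln3, an oxygen-sensing prolyl hydroxylase gene, at a log2 ratio of 2.47. Mir155hg, a microRNA host transcript, was at least 4.95-fold higher and Tnfrsf11b, which encodes the RANKL decoy osteoprotegerin, at least 4.23-fold. Gpr84, a receptor for medium-chain fatty acids, was at 1.72.

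On the lower side, Cdh1, the E-cadherin gene found in GM-CSF cultures of marrow dendritic cells, had signals of 733 without LPS and 115 with it (6.396-fold lower). Hmgb2, a chromatin protein gene of dividing cells, was at -2.86 and the DNA repair gene Brca1 at -2.05. Nfe2, a factor of the erythroid and megakaryocyte lineages, gave 181 and 30.2, and Ramp1, a subunit of the receptor for the neuropeptide CGRP, 484 and 91.1. Aif1, the macrophage gene for IBA1, was at -2.11.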
